A study of Mus musculus with 17 samples.

Results

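The clustered protocadherins are neighbouring cell surface genes on mouse chromosome 18, and the genes described here are those whose symbols begin with Pcdha, Pcdhb or Pcdhg. In the bulk nuclear RNA-seq of medial prefrontal cortex (mPFC), 57 of 36293 listed genes met this rule: 14 alpha, 22 beta and 21 gamma genes. In the single-nucleus RNA-seq (sNucDrop-seq) of neocortex, 57 of 37608 listed symbols met it: 13 alpha, 22 beta and 22 gamma genes. The nuclei tables hold Pcdha11 once and add Pcdhgb8, whereas the bulk table lists the symbol Pcdha11 under the identifiers ENSMUSG00000007440 and ENSMUSG00000102206. RefSeq, on the same build, lists a gene named Pcdha10 at the position of the former.

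Clustered protocadherins are calcium-dependent adhesion proteins that bind the same isoform on an opposing membrane, which allows neurites of a neuron to tell themselves from those of other neurons. Each alpha and gamma gene has a variable exon of its own with its own promoter, and this exon is spliced to constant exons that all genes of the cluster share and that encode a common cytoplasmic tail. Beta genes lack constant exons. A neuron chooses a few of the promoters largely at random through DNA methylation and through CTCF and cohesin, which bring a chosen promoter to a distant enhancer. The C-type genes (Pcdhac1, Pcdhac2, Pcdhgc3, Pcdhgc4 and Pcdhgc5) escape this random choice and are expressed more uniformly within a cell type. Pcdhgc4 is known for its role in the survival of cortical interneurons, and Pcdhgc3 for dendrite growth.

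All mice were male C57BL/6 (C57Bl/6J in the study's methods). The bulk comparison took 4 control and 5 CUS mice at postnatal day 90, and the nuclei comparison 4 control and 4 CUS mice at postnatal day 80. Chronic unpredictable stress (CUS) consisted of 3 stressors a day for 12 days, begun at 9 to 10 weeks of age. Control mice were kept in another room and handled gently each day, so stress, room and handling cannot be told apart. Each mouse was 1 replicate, and the p-values below measure the spread between these mice.

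Bulk libraries held 26188825 to 30525015 reads on genes. Of the genes, 18394 passed the filter of edgeR on low counts, and the quasi-likelihood test of edgeR called 606 of them at a false discovery rate (FDR) of 0.05. After filtering, 26698 nuclei remained with 4699542 to 12477099 unique molecular identifiers (UMIs) per mouse. Of 26677 distinct barcodes, 20 occurred in more than 1 mouse. Some markers of several cell types differed between bulk groups, and those values are given after the results on segments.

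The 3 clusters lie in the order alpha, beta, gamma along the plus strand (mm10). The alpha genes span chr18:36930184-37187661, the beta genes chr18:37264938-37524479 and the gamma genes chr18:37661793-37841873. In GENCODE vM21, the annotation used here for the same build, start and end of all 57 genes were those of the bulk table. Exons were counted in the coding transcript with the most exons of each gene, so other transcripts may have fewer. In these transcripts, all 21 gamma genes had 4 exons and shared the start of the second and of the last exon. All 14 alpha genes shared the start of the second exon, while 9 had 4 exons and the other 5 had 5. Of the 22 beta genes, 18 had 1 exon. As a result an alpha gene spanned 44.2 to 257 kb and a gamma gene 22.4 to 180.1 kb, each one running through every gene downstream of it, whereas a beta gene spanned 2.59 to 8.70 kb.

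This nesting carries over into the bulk counts. In 117 comparisons of neighbouring alpha genes within a mouse and 180 of neighbouring gamma genes, the downstream gene never held more reads than the upstream one. The count of Pcdha1 is thus the count of the whole alpha locus, and its neighbours are not independent measurements. To describe the genes separately, the reads of each alpha and gamma gene were reduced by those of the next gene downstream. The remainder, called a segment here, covers the stretch from the start of a gene to the start of the next. It holds the variable exon of that gene together with intronic reads of every gene upstream. The segments of Pcdhac2 and Pcdhgc5, the last of their clusters, also hold the constant exons, so reads on these cannot be assigned to a single gene.

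Read density differed along each locus. In control mice the alpha segments ran from 0.0803 ± 0.0309 RPKM (reads per kb and 1000000 reads; SD, n = 4) at Pcdha1 to 1.89 ± 0.0398 at Pcdha11 (ENSMUSG00000102206). Density was 0.905 ± 0.038 over Pcdha12 and 0.918 ± 0.0397 over Pcdhac1, and it was 1.48 ± 0.0335 at Pcdhac2. Position along the locus and density went together across the 14 alpha segments with a Spearman's rho of 0.75, which is given as a description, since a segment contains introns of the genes upstream. In the gamma locus the lowest density was 0.583 ± 0.0889 at Pcdhga1 and the highest density of a variable gene was 2.30 ± 0.0721 at Pcdhga8. The C-type segments ran from 1.76 ± 0.102 at Pcdhgc4 to 2.08 ± 0.302 at Pcdhgc3 and 4.13 ± 0.113 at Pcdhgc5. Across the 21 gamma segments rho was 0.39. Density was thus lowest at the upstream end of both loci. In alpha it rose, with dips at Pcdha7 and Pcdha9, up to Pcdha11 (ENSMUSG00000102206) and was lower after it. In gamma it followed no steady order along the rest.

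**Figure D1:**
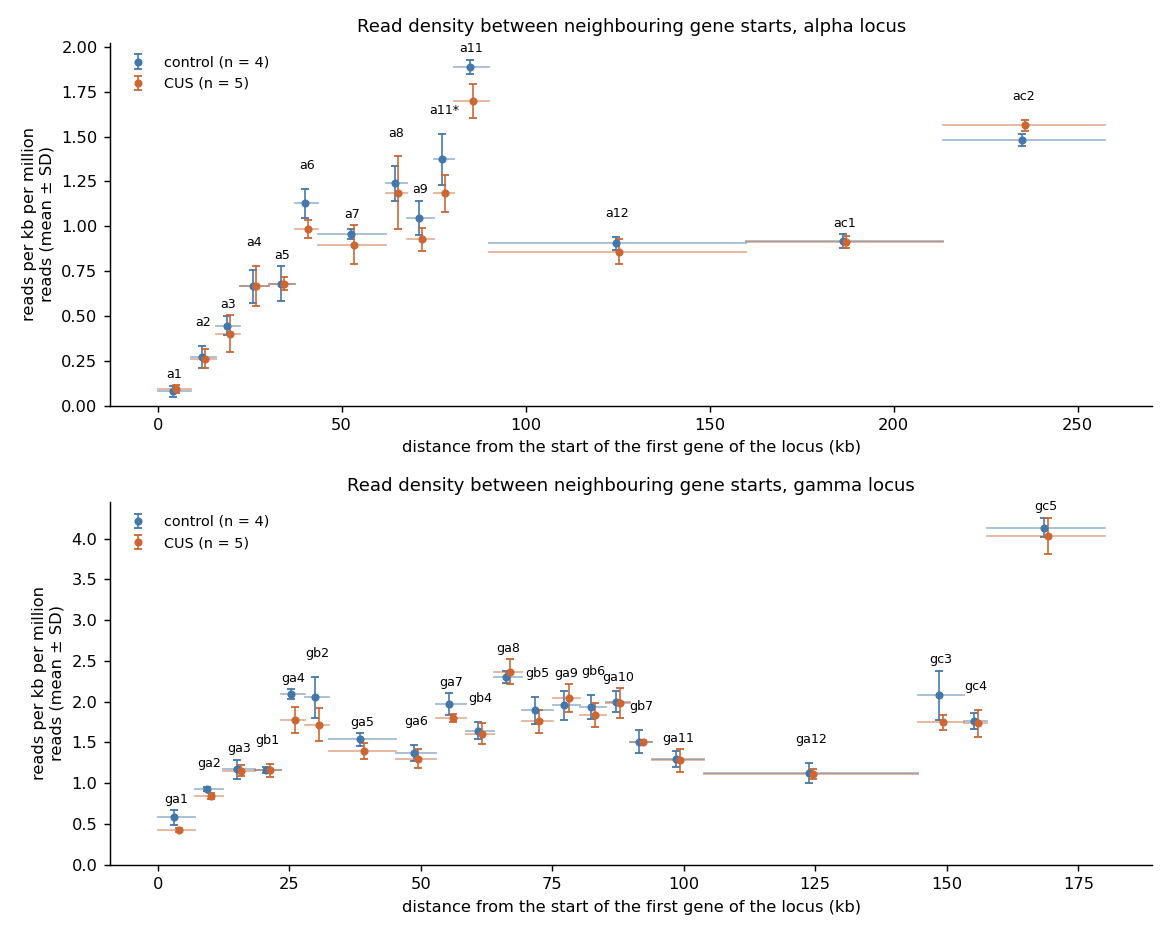
Read density (RPKM, mean ± SD) of each segment in 4 control (blue) and 5 CUS (orange) mice against the distance from the start of the alpha (top) or gamma (bottom) locus in kb, where horizontal lines mark the segment and a11* is ENSMUSG00000007440. Alpha density is 0.0803 at Pcdha1 and 1.89 at Pcdha11 in control mice, and the last gamma segment, Pcdhgc5, stands at 4.13.

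The beta genes do not overlap in this way (only Pcdhb21 and Pcdhb22 share some bases), so their levels per kb are given without segments. Only uniquely mapped reads were counted, and the length is that of the whole gene. In Pcdhb2, Pcdhb6, Pcdhb8 and Pcdhb22 the coding transcript with the most exons had an intron. That transcript held only 511, 681, 462 and 2266 spliced bases, so it need not be the main one. How uniquely reads map to each beta gene was not tested, so the order of levels is a description. Pcdhb17, Pcdhb19 and Pcdhb16 had the highest levels in control mice, 1.94, 1.82 and 1.65 RPKM. Over all 9 mice the 8 genes at the upstream end, Pcdhb1 to Pcdhb8, lay between 0.0699 and 0.665, and the other 14 between 0.859 and 1.84. The upstream genes were therefore all below the downstream ones. Pcdhb1 was lowest, and as the only member that did not pass the filter on low counts it was not tested. Across the 22 beta genes, level and position had a rho of 0.74, and bulk level and UMIs per kb in the nuclei a rho of 0.65. These are descriptions over genes that share libraries.

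In the comparison of CUS with control mice, which asked how stress alters nuclear RNA, no clustered protocadherin gene passed the threshold. Of 56 members tested, 0 were called by edgeR at an FDR of 0.05, where 3.29% of all genes were called, 2.13% lower and 1.16% higher. Without adjustment, 0 of 56 members had a p under 0.05, against 21.5% of all genes, and DESeq2 and the likelihood ratio test of edgeR also called 0. The estimates were small and mostly negative: 51 of 56 lay below 0, namely 11 of 14 alpha, 19 of 21 beta and 21 of 21 gamma genes. Among all genes tested, 48.7% lay below 0. Since alpha and gamma counts are nested, these counts of genes are not counts of independent measurements. The median log2 fold change was −0.03 for alpha, −0.12 for beta and −0.05 for gamma genes, against 0.006 for all genes tested. Control and CUS mice did not overlap for 2 of 56 members, Pcdhac2 and Pcdhb18, compared with 8.76% of all genes.

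The summed level of each cluster differed little. Reads on the alpha locus made up 258 ± 3.08 CPM (counts per 1000000 counts) in control (SD, n = 4) and 252 ± 10.4 in CUS mice (n = 5). The beta genes summed to 101 ± 4.02 and 94.0 ± 3.15 CPM, and the gamma locus to 326 ± 11.5 and 311 ± 9.58. The groups overlapped in all 3 clusters. With each cluster fitted as 1 feature, beta came closest to the threshold, at a log2 fold change of −0.11 and an FDR of 0.237 by edgeR. In bulk tissue, fewer cells of a type and less RNA per cell cannot be told apart.

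Among alpha genes as counted, with all reads downstream included, the C-type gene Pcdhac2 had the largest estimate. Its level in the 4 control mice was 67.4, 65.6, 64.1 and 64.5 CPM and in the 5 CUS mice 70.7, 69.7, 69.3, 67.6 and 67.7 CPM. Every CUS mouse was above every control mouse, by a narrow margin. The log2 fold change was 0.08 (SE 0.046) and did not pass the threshold (FDR 0.359 by edgeR). The Pcdhac2 segment made up 25.4% of the reads of the alpha locus in control and 27.4% in CUS mice, and these shares overlapped between groups. Pcdhac1, the other C-type gene of the cluster, had 46.0, 49.5, 50.6 and 50.3 CPM in its segment in control mice and 47.1, 50.7, 50.6, 47.2 and 48.9 in CUS mice, which is the same range.

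Several variable alpha segments had larger estimates than Pcdhac2. The segment of Pcdha6 held 7.55, 7.05, 6.95 and 6.32 CPM in control and 5.65, 6.47, 6.16, 5.86 and 6.20 CPM in CUS mice. The groups overlapped in a single CUS mouse, and the log2 fold change was −0.20 (FDR 0.206). The segment of Pcdha11 (ENSMUSG00000007440) held 7.14, 8.73, 7.28 and 7.10 CPM against 6.58, 7.18, 5.76, 6.16 and 6.92, with 1 CUS mouse inside the control range and a log2 fold change of −0.22 (FDR 0.229), or −0.14 without control replicate 2. As nested genes, which include all reads downstream, Pcdha6 had an estimate of −0.04 and this Pcdha11 of −0.02. The other Pcdha11 (ENSMUSG00000102206), the variable alpha segment with the highest density, held 18.2, 17.3, 18.1 and 17.8 CPM in control and 16.0, 17.6, 15.5, 15.5 and 15.6 CPM in CUS mice (log2 fold change −0.16, FDR 0.162). In 4 of the 5 CUS mice it was below all control mice. The Pcdha1 segment had an estimate above 0, at 0.17 (SE 0.281), on 14 to 33 reads per mouse, and ranged from 0.014 to 0.42 with a mouse left out.

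**Figure D2:**
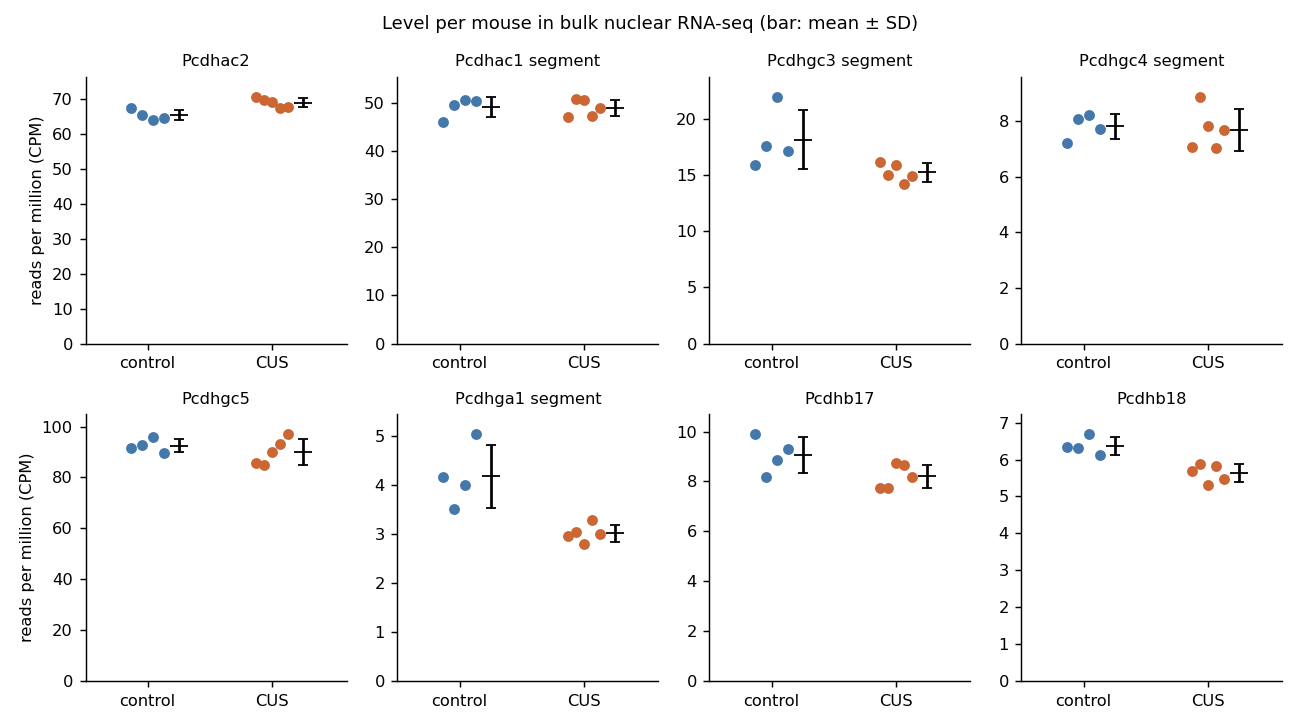
Level in each mouse (CPM, points) with mean ± SD (bars) for 8 members in bulk nuclear RNA-seq of 4 control (blue) and 5 CUS (orange) mice, using segments for the alpha and gamma genes so labelled. CUS mice lie above control mice for Pcdhac2 and below them for the Pcdhga1 segment and Pcdhb18, while the groups overlap in the other 5 panels.

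Among the beta genes, Pcdhb18 had the smallest p of all members as counted in bulk (segments aside) and is named for that reason, after its values were seen. It measured 6.34, 6.3, 6.69 and 6.12 CPM in control and 5.69, 5.88, 5.32, 5.83 and 5.48 CPM in CUS mice, with every CUS mouse below every control mouse. The log2 fold change was −0.17 (SE 0.084), with an unadjusted p of 0.0575 and an FDR of 0.25 by edgeR. The 3 beta genes with the highest level per kb also lay below 0 but overlapped between groups. Pcdhb17 had 9.89, 8.19, 8.85 and 9.31 CPM in control and 7.75, 7.73, 8.72, 8.65 and 8.16 CPM in CUS mice (log2 fold change −0.14). Pcdhb19 ranged from 11.6 to 14.0 CPM in control and from 11.3 to 13.2 CPM in CUS mice (−0.12), and Pcdhb16 from 7.77 to 9.14 and from 7.68 to 8.23 CPM (−0.10).

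The largest beta estimates belonged to genes with few reads, and their errors were wide. Pcdhb2 had 0.793, 1.62, 0.934 and 0.460 CPM in control and 0.782, 1.06, 0.471, 0.861 and 0.620 CPM in CUS mice. The log2 fold change of −0.33 was no larger than its SE of 0.334, and 1 control mouse was well above the others. Without this mouse, control replicate 2, the estimate was 0.065. Pcdhb8 (−0.21, SE 0.147) ranged from 1.76 to 2.37 CPM in control and from 1.62 to 2.10 CPM in CUS mice. Pcdhb5 (−0.20, SE 0.179) ranged from 1.48 to 2.08 CPM and from 1.38 to 2.24 CPM.

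In the gamma cluster the clearest difference stood at the upstream end. The Pcdhga1 segment held 4.15, 3.51, 4.00 and 5.03 CPM in control and 2.95, 3.04, 2.80, 3.28 and 3.00 CPM in CUS mice, so every CUS mouse was below every control mouse. The log2 fold change was −0.47 (SE 0.126), and the FDR of 0.058 by edgeR did not pass the threshold. The Pcdhga4 segment held 9.82, 9.88, 9.26 and 9.67 CPM against 7.71, 8.16, 8.92, 8.98 and 7.23 CPM, again without overlap (−0.24, FDR 0.13). The neighbouring Pcdhgb2 segment held 9.25, 10.2, 7.77 and 10.2 CPM against 7.29, 9.19, 7.68, 6.76 and 8.16 CPM, with overlapping groups (−0.27, SE 0.111, FDR 0.185). The same reads are a small part of the nested counts, where Pcdhga1 ranged from 314 to 336 CPM in control and from 301 to 322 CPM in CUS mice, with a log2 fold change of −0.07.

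The 3 gamma C-type genes are described by their segments. The Pcdhgc3 segment held 15.9, 17.5, 21.9 and 17.1 CPM in control and 16.1, 14.9, 15.9, 14.1 and 14.9 CPM in CUS mice. Of the 5 CUS mice, 4 were below all control mice, CUS replicate 3 by less than the digits given here, and CUS replicate 1 was above control replicate 1. The log2 fold change was −0.25 (SE 0.088, FDR 0.118). Without control replicate 3, the highest control mouse, it was −0.15 (FDR 0.207). The Pcdhgc4 segment held 7.21, 8.09, 8.22 and 7.73 CPM against 7.07, 8.87, 7.81, 7.02 and 7.68 CPM, which overlapped throughout (−0.03). Pcdhgc5 held 91.7, 92.6, 95.7 and 89.7 CPM against 85.7, 85.0, 89.9, 93.0 and 97.0 CPM (−0.04), with the lowest and the highest level both in CUS mice. No test compared the 3 genes with each other.

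With the 35 segments in place of the nested genes, 0 segments were called at an FDR of 0.05, where 3.40% of all features were called. Unadjusted p-values under 0.05 were found for 3 of 14 alpha and 4 of 21 gamma segments, against 21.5% of all features, which is near the share among the segments. Groups did not overlap for 1 alpha and 3 gamma segments (Pcdhac2, Pcdhga1, Pcdhga2 and Pcdhga4), against 8.71% of all features. The median log2 fold change was −0.07 over alpha and −0.04 over gamma segments.

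**Figure D3:**
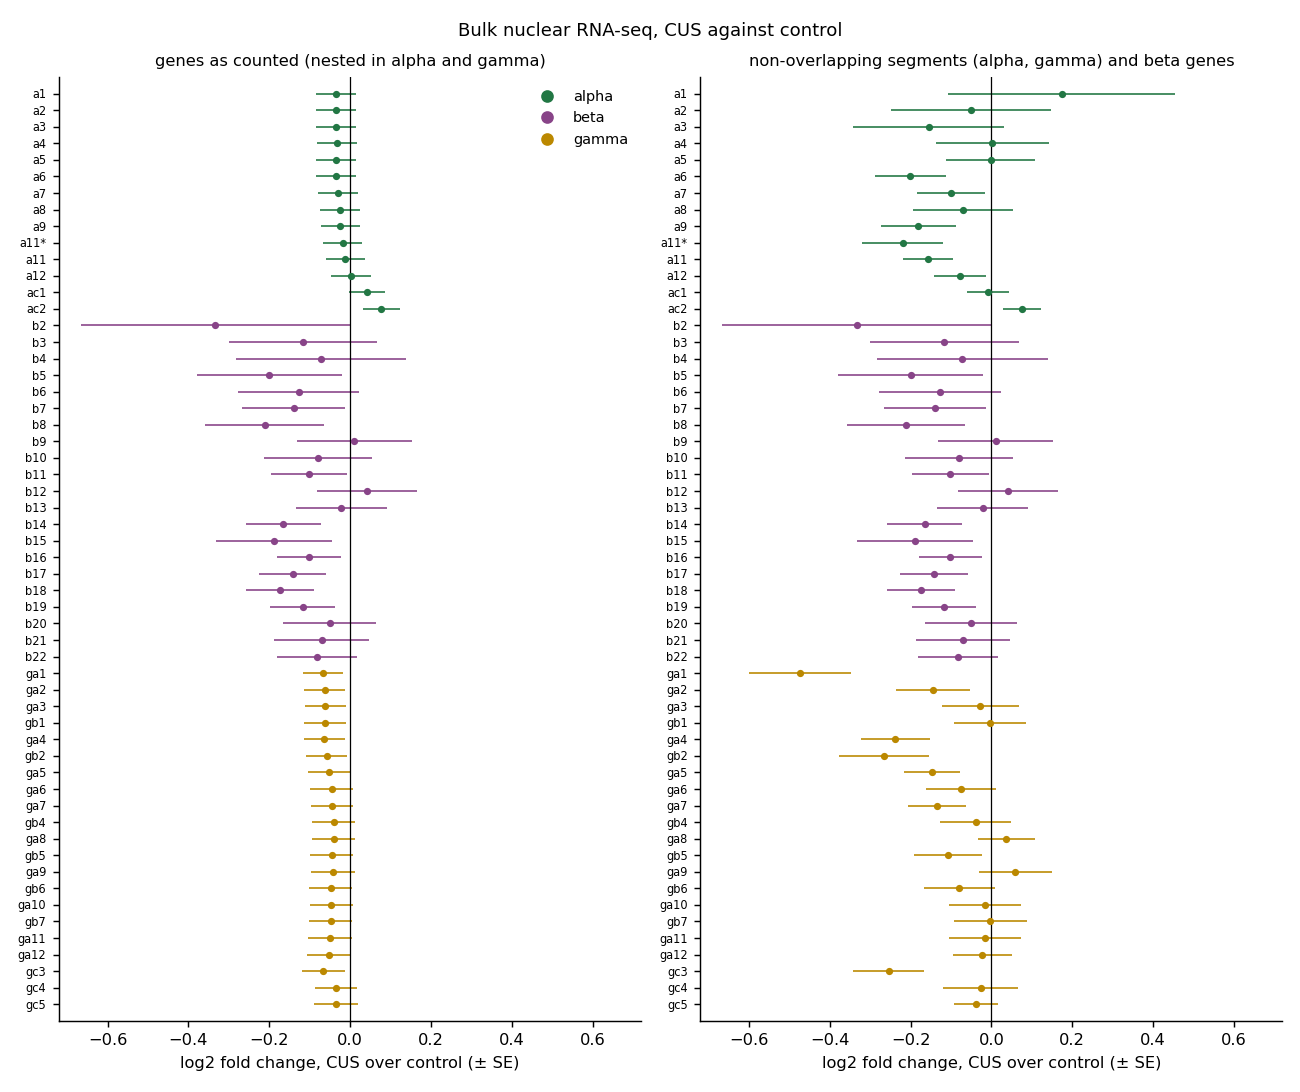
Log2 fold change of CUS over control (± SE) by edgeR for each tested member in cluster order, with genes as counted on the left, and segments for alpha and gamma beside the same beta genes on the right (a11* is ENSMUSG00000007440). As counted, nested alpha and gamma genes repeat nearly the same small value, whereas segments range from −0.47 at Pcdhga1 to 0.17 at Pcdha1.

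Marker sums of some cell types differed between groups, and the largest part of a sum could lie in 1 gene. Among all genes tested, 2.13% were called lower and 1.16% higher. The summed level of 6 oligodendrocyte precursor markers was 329 to 406 CPM in control and 256 to 319 CPM in CUS mice, with 1 of 6 called lower. The gene called, Lhfpl3, held 269 ± 25.4 CPM in control and 183 ± 29.3 in CUS mice. Estimates of the other markers of this list ran from −0.24 (Vcan) to −0.0008 (Olig2). Of 9 astrocyte markers 3 were called lower, and their sum was 2428 to 2819 CPM in control and 2206 to 2556 CPM in CUS mice. Of 5 parvalbumin interneuron markers 4 were tested, and 0 were called. The sum of these 4 was 410.2 to 465 CPM in control and 476 to 539 CPM in CUS mice. Most of it lay in Kcnc2, with means of 363 CPM in control and 414 CPM in CUS mice (log2 fold change 0.19). Estimates of Btbd11 (0.34) and Pvalb (0.44) were also above 0, and that of Eya4 was −0.09. The sum of 8 striatal neuron markers was 651 to 1042 CPM and 1139 to 1377 CPM, with 1 called higher and a median log2 fold change of −0.83 over the list. The gene called was Pde10a, at 778 ± 150 CPM in control and 1187 ± 97.8 in CUS mice, while all other markers of this list had estimates below 0. The sum of 8 oligodendrocyte markers was 303 to 711 CPM and 318 to 401 CPM, with 1 called lower. All 6 excitatory neuron markers had estimates above 0 (median 0.26), and 1 of them, Neurod6, was called higher (FDR 0.012 by edgeR), while their sum was 1306 to 1924 CPM in control and 1693 to 1798 CPM in CUS mice. Marker lists of the other cell types had at most 1 gene called in each direction, and their sums overlapped between groups. In the nuclei described below, Pcdhgc3 was highest in astrocyte-like and Pcdhac2 in Pvalb interneuron-like nuclei. The part of any of these cell types in the differences between groups was not tested.

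A list of 23 genes for promoter choice at these clusters held CTCF, cohesin and its loaders and removers, DNA methyltransferases and silencing factors. All 23 were tested, and 1 was called higher and 0 lower, against 1.16% and 2.13% of all genes. Their median log2 fold change was −0.07. The gene called was Zfp143, a zinc finger protein found with CTCF at chromatin loops, which rose from 10.8 ± 0.58 to 14.2 ± 0.613 CPM (log2 fold change 0.39, FDR 0.013 by edgeR). Ctcf itself had an estimate of 0.02 (FDR 0.853). The core cohesin genes Rad21, Smc1a and Smc3 had estimates of −0.12, −0.13 and −0.14, with FDRs of 0.342, 0.254 and 0.251. Of the genes not called, Pds5b came nearest the threshold, at −0.21 (FDR 0.062), with every CUS mouse below every control mouse. The cohesin loader Mau2 had an estimate above 0, at 0.14 (FDR 0.182). Smchd1, a silencer of the clusters, had an estimate of −0.07 (FDR 0.510). Rest, a neuronal gene repressor, had the largest estimate below 0, at −0.48 (FDR 0.114).

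Among 28 signalling and processing partners, all of them tested, 1 was called higher and 1 lower, against 1.16% and 2.13% of all genes. Their median was −0.01. Ptk2 encodes focal adhesion kinase, which binds the cytoplasmic tails of clustered protocadherins. It rose from 575 ± 50.5 to 712 ± 21.8 CPM (log2 fold change 0.31, FDR 0.026 by edgeR). Gsk3b, a kinase of the Wnt pathway, fell from 243 ± 6.74 to 211 ± 6.14 CPM (−0.21, FDR 0.040). Both calls were lost without control replicate 2, at FDRs of 0.090 for Ptk2 and 0.119 for Gsk3b, and the call of Zfp143 was lost too (FDR 0.053). Ret, a receptor tyrosine kinase found in complex with protocadherins, had an estimate of 0.30 (FDR 0.204).

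Of 10 other protocadherins, which lie outside the clusters and are transcribed from promoters of their own, 0 were called (median −0.04), against 3.29% of all genes. Pcdh11x had the largest estimate, at −0.47 with an FDR of 0.058 by edgeR. It passed the threshold in 6 of the alternatives, with an FDR of 0.012 without CUS replicate 2. Pcdh20 had an estimate of −0.21 (FDR 0.325).

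In the nuclei the clustered protocadherins were sparse. Their 57 symbols together held 10178 UMIs, or 0.0152% of all UMIs, and each member held between 1 (Pcdhb1) and 760 (Pcdhb14). A member UMI was found in 28.3% of nuclei, and in 78.3% of these it came from 1 member only, namely in 5911 nuclei. At this depth, the number of members in a nucleus does not show how many it expressed. The beta cluster took 60.0% of member UMIs (95% exact binomial interval 59.1 to 61.0%), the gamma cluster 28.9% (28.0 to 29.8%) and the alpha cluster 11.1% (10.5 to 11.7%). These intervals, like those below, cover counting error only. In the bulk libraries the beta genes took 14.5%, the gamma locus 47.5% and the alpha locus 38.0% of the reads on the 3 clusters. The order of these shares thus differed between assays, but they are not adjusted for length. In bulk, reads were counted over the whole alpha locus (257 kb) and gamma locus (180 kb), introns included. A beta gene spanned only 2.59 to 8.70 kb. How UMIs on overlapping genes were assigned is not given in the sources used here. The shares therefore do not compare expression between the assays.

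The comparison of CUS with control nuclei could not reach single members. The study's rule on low counts, stated for clusters of nuclei, asks for more UMIs than 10% of the number of nuclei. Applied here to all nuclei it asked for 2669.8 UMIs, which no member held, so 0 were tested over all nuclei, where 0.0199% of 5018 genes were called at an FDR of 0.2. Within the 26 classes of over 200 nuclei, too, no member passed the filter (0.106% of tests called). Summed clusters were closer to what the depth allows. Alpha levels in CPM of the UMIs on tested genes (scaled by TMM factors) were 21.4 ± 2.35 in control and 18.2 ± 2.52 in CUS mice (SD, n = 4 each), beta levels 108 ± 8.01 and 102 ± 8.54, and gamma levels 52.2 ± 6.46 and 47.4 ± 9.19. All 3 ranges overlapped between groups. Fitted as 1 feature, beta had a log2 fold change of −0.08 (FDR 0.772 by edgeR) and gamma of −0.15 (FDR 0.738), and the sum of alpha did not pass the filter.

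Without the filter, all 57 members could be fitted, and 38 had estimates below 0, with a median of −0.11 and 0 calls. Of all 36464 genes, 44.8% had estimates below 0, the median was 0.049 and 0.847% were called. Among the 5018 genes past the filter, which no member passed, 51.1% had estimates below 0 and the median was −0.003. In CPM, control and CUS mice did not overlap for 3 of 57 members (Pcdha3, Pcdhga7 and Pcdhgc3), compared with 2.91% of all genes. For the 5018 genes past the filter, the groups did not overlap in 241, and 402 had a p under 0.05 by edgeR. Pcdhga7 was the only member with a p under 0.05, against 6.83% of all genes (log2 fold change −0.79, FDR 0.561). Its UMIs per mouse were 15, 36, 35 and 15 in control and 9, 9, 10 and 26 in CUS mice, and its level 2.90, 3.51, 3.24 and 3.84 CPM against 1.35, 1.87, 1.67 and 2.75 CPM, with every CUS mouse below every control mouse. Pcdhac2, highest in CUS mice in bulk, held 44, 33, 51 and 20 UMIs in control and 37, 13, 20 and 55 in CUS nuclei (−0.23, SE 0.26). Pcdhgc3 held 5, 7, 5 and 3 UMIs against 10, 5, 6 and 10 (0.72, SE 0.51). In CPM it was at 0.968, 0.682, 0.463 and 0.769 in control and 1.50, 1.04, 1.00 and 1.06 in CUS mice, with every CUS mouse above every control mouse. Both signs were opposite to those of the bulk segments, and neither estimate passed the test in either assay. The bulk segments also hold intronic reads of genes upstream, and that of Pcdhac2 the constant exons. By the study's methods, bulk mPFC was taken after the last behavioral test and neocortex after the final stressor. The 2 assays therefore did not measure the same thing.

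Nuclei were grouped into classes without use of the clustered protocadherin genes, and 14 classes of over 200 nuclei were named from markers. Summed over all members, oligodendrocyte precursor (OPC)-like nuclei had the highest level of these, 302 ± 83.0 CPM of the UMIs of the class (SD, n = 8 mice), followed by Vip interneuron-like nuclei with 216 ± 64.0. The lowest levels were 117 ± 50.2 in oligodendrocyte-like, 121 ± 35.8 in L5 excitatory-like and 125 ± 45.7 in microglia-like nuclei. Neighbours in this order overlapped in their spread. With each nucleus thinned to 1000 UMIs, which left out 2413 nuclei, a member UMI was found in 13.9% of all nuclei, 26.0% of OPC-like (265 nuclei, 170 left out), 19.9% of Vip interneuron-like and 13.6% of astrocyte-like nuclei. Microglia, the immune cells of the brain, are not known for these genes, and the share in microglia-like nuclei was 10.4% (192 nuclei, 55 left out). Shares below it were found in oligodendrocyte-like nuclei (10.0%) and in the unnamed classes led by Cpne7 (10.1% of 962 nuclei) and Ctgf (9.09% of 561 nuclei). At this depth the share of nuclei with a member UMI thus did not set these classes apart from microglia-like nuclei, and the part of free RNA in these shares was not tested. Before thinning the shares were 26.7% in OPC-like, 20.6% in microglia-like and 12.6% in oligodendrocyte-like nuclei, at median depths of 1087, 1624 and 1186 UMIs.

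Levels of each cluster are given by class with the number of mice that shared a direction. None of these differences passed the adjusted test described after them, which no difference could pass on its own. Alpha UMIs were scarce in astrocyte-like nuclei, where 5 UMIs gave 3.44 ± 4.46 CPM against 17.2 ± 2.35 in all other nuclei of the same mice, lower in 8 of 8 mice. Gamma UMIs were higher in these nuclei, 77.5 ± 25.2 CPM against 41.6 ± 7.06, again in 8 of 8 mice. OPC-like nuclei had the highest gamma level, 109 ± 39.6 against 41.8 ± 7.12 (8 of 8 mice), and the highest beta level, 180.3 ± 70.1 against 88.9 ± 8.08 (7 of 8 mice). Pvalb interneuron-like nuclei stood at the opposite end, with the highest alpha level, 26.2 ± 10.1 against 16.4 ± 2.29 (7 of 8 mice), and the lowest gamma level, 28.8 ± 7.69 against 42.9 ± 7.31 (lower in 7 of 8 mice). L5 excitatory-like nuclei were lower for gamma, 32.8 ± 11.8 against 43.0 ± 6.96, in 8 of 8 mice.

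Each of 14 classes was compared with all other nuclei for each of 3 clusters by an exact sign-flip permutation test over 8 mice (two-sided). Of these 42 comparisons, 13 had an unadjusted p under 0.05 and 0 had a Benjamini-Hochberg adjusted p under 0.05. The 4 differences found in 8 of 8 mice each had the smallest exact p that 8 mice allow, 0.00781, and an adjusted p of 0.0729, which did not pass the threshold at this number of comparisons. At 42 comparisons no difference could pass on its own, however large, since several must share the smallest p. The test thus cannot decide on a single difference. After thinning, Sst interneuron-like nuclei (31.2 CPM) rather than Pvalb interneuron-like nuclei (22.3) were highest for alpha, and the highest class for beta and gamma did not change. The lowest class over all members and for beta became microglia-like (103 and 51.9 CPM) instead of oligodendrocyte-like nuclei.

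Within classes, the levels of the clusters in control and CUS mice were not tested against each other. Of 42 combinations of a named class and a cluster, the groups did not overlap in 2, compared with 3.35% of the genes past the filter in these classes. These were gamma genes in claustrum-like nuclei, with 63.2 ± 16.8 CPM in control and 17.6 ± 17.8 in CUS mice (SD, n = 4 each, 51 UMIs in all), and alpha genes in Vip interneuron-like nuclei, with 12.3 ± 2.38 and 25.5 ± 10.7 (18 UMIs in all). In OPC-like nuclei, which had the highest level over all members, the values were 315 ± 72.7 in control and 289 ± 102 in CUS mice.

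**Figure D4:**
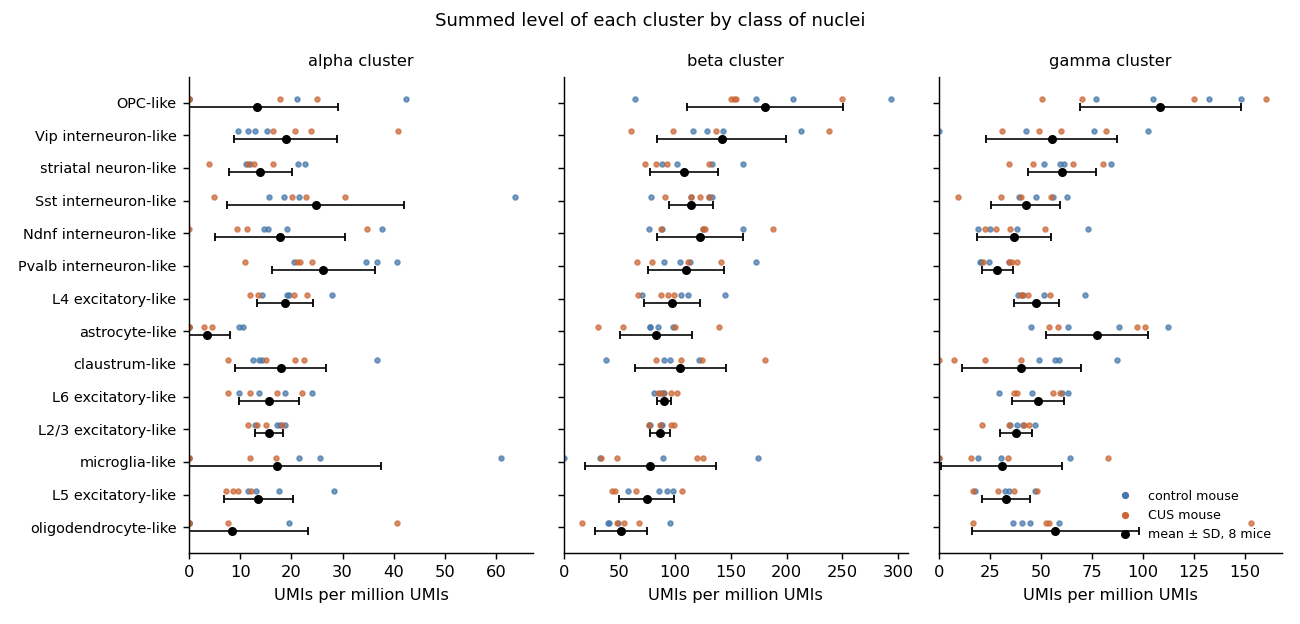
Summed alpha, beta and gamma levels (CPM of the UMIs of the class, each axis from 0) in the 14 named classes of nuclei for each control (blue) and CUS (orange) mouse, with the mean ± SD over 8 mice in black, where classes are ordered by their total level. Astrocyte-like nuclei have the lowest alpha mean (3.44) and the second highest gamma mean (77.5), and OPC-like nuclei the highest beta (180.3) and gamma (109) means.

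The make-up of member UMIs is given as a description. In astrocyte-like nuclei 1.97% of 254 member UMIs were alpha (95% exact binomial interval 0.642 to 4.53%), 50.4% beta and 47.6% gamma (41.4 to 54.0%). In oligodendrocyte-like nuclei 4.90% of 102 were alpha (1.61 to 11.1%) and 50% gamma (39.9 to 60.1%), and in OPC-like nuclei 3.80% of 158 were alpha (1.41 to 8.08%) and 34.2% gamma (26.8 to 42.1%). Pvalb interneuron-like nuclei were at 15.6% alpha (12.4 to 19.3%) and 18.1% gamma (14.6 to 21.9%) of 454. A class left unnamed and led by Il1rapl2, one of the markers listed for excitatory neurons of layers 5 and 6, had a like make-up, with 16.3% alpha (13.1 to 19.9%) and 21.2% gamma (17.7 to 25.2%) of 485. L2/3 excitatory-like nuclei, with 11.1% alpha and 27.4% gamma (25.1 to 29.7%) of 1502, included the values of all nuclei in their intervals, whereas L6 excitatory-like nuclei, with 32.6% gamma (29.6 to 35.7%) of 921, lay above the 28.9% of all nuclei. Striatal neuron-like nuclei lay further away, with 34.0% gamma (30.6 to 37.4%) and 7.78% alpha (5.99 to 9.90%) of 771. Microglia-like nuclei, with 14.1% alpha (6.97 to 24.4%) and 28.2% gamma (18.1 to 40.1%) of 71, also had the make-up of all nuclei within these intervals.

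The C-type genes were uneven across classes, and their few UMIs are given as a description. Pcdhgc3 held 51 UMIs in all, of which 20 (39.2%) came from astrocyte-like nuclei, a class with 2.33% of the UMIs. This was 12.9 CPM over the pooled mice, with UMIs in 6 of 8 mice. OPC-like nuclei followed with 4 UMIs (7.66 CPM), and every other named class held 5 or fewer. Pcdhac2 was highest in Pvalb interneuron-like nuclei, with 31 of 273 UMIs and 11.9 ± 7.25 CPM against 3.82 ± 1.41 in all other nuclei, higher in 8 of 8 mice. It was next highest in Sst interneuron-like nuclei with 15 UMIs, and astrocyte-like nuclei held 1.

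Pcdhgc4 held 76 UMIs, and its pooled level was highest in Vip interneuron-like nuclei (5 UMIs, 5.04 CPM). Sst interneuron-like nuclei held 6 and Pvalb interneuron-like nuclei 7, in 4 and 3 mice, so no order among interneuron classes can be read. Pcdhgc5 was found in each of the 14 named classes of over 200 nuclei. Its 288 UMIs included 54 in L2/3 excitatory-like nuclei, which held 18.8% of them and 15.8% of all UMIs. Pcdhac1 held 16 UMIs in all (0.240 CPM over all nuclei) and was at 0 in 9 of the 14 named classes, which allows up to between 0.515 and 5.74 CPM there (a floor of 3 counts). These limits lie above its level over all nuclei, so a lack of Pcdhac1 in any of these classes was not detectable at this depth.

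**Figure D5:**
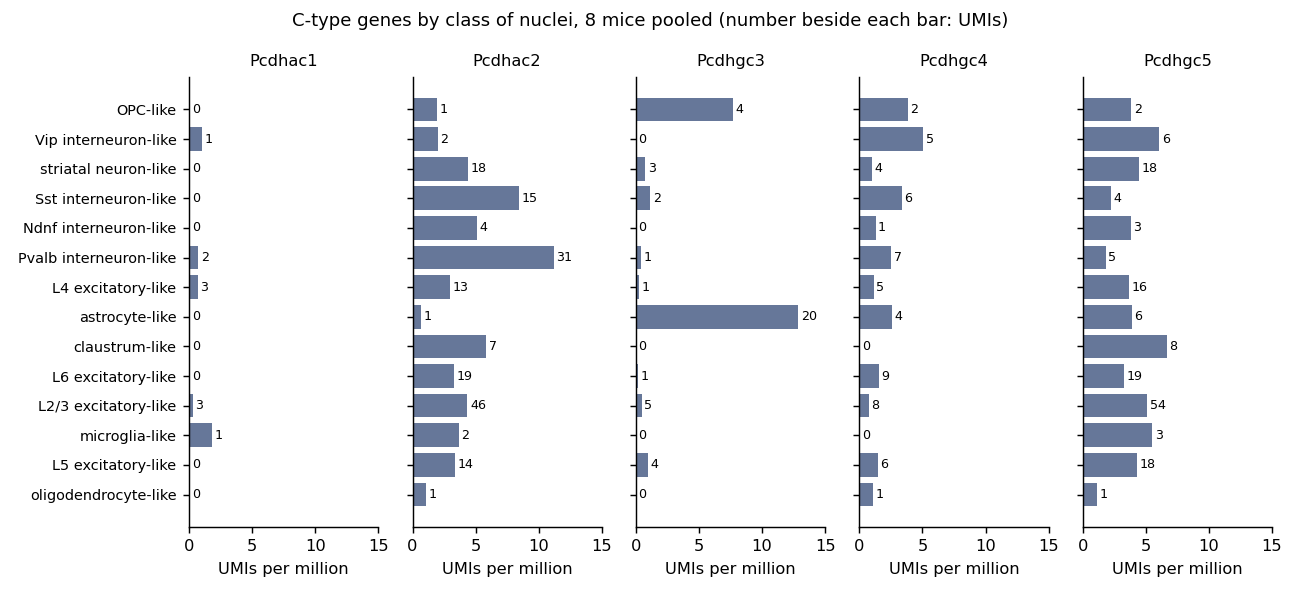
Level (CPM of the UMIs of the class) of the 5 C-type genes in the 14 named classes of nuclei, pooled over 8 mice, with the number of UMIs beside each bar. Pcdhgc3 is concentrated in astrocyte-like nuclei (20 of 51 UMIs) and Pcdhac2 is highest in Pvalb interneuron-like nuclei (31 UMIs), while Pcdhgc5 has UMIs in each of the 14 classes.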

How the data were processed

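Bulk nuclear RNA-seq files hold read counts per gene and sNucDrop-seq files UMI counts per gene and barcode, which the authors made before deposit and did not normalize. The study's methods give STAR and mm10 for alignment, and in-house counting of uniquely mapped reads (bulk), and counting of exonic and intronic UMIs on GENCODE vM13 genes (nuclei). Members and gene lists were chosen with earlier results of these data known. Group differences were fitted with edgeR 4.0.16 in R 4.3.3 (filterByExpr, TMM factors, quasi-likelihood test, Benjamini-Hochberg adjustment over all genes). CPM are per 1000000 reads on tested genes, scaled by TMM factors. FDRs were 0.05 in bulk and 0.2 in nuclei, as in the study.

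The study's limits on barcodes were applied: at least 600 and at most 5000 genes, less than 5% of UMIs from mitochondria, and a doublet score not above 0.2 (scanpy 1.11.5, Python 3.11.15). The limit on the doublet score took the nuclei from 31486 to 26698. The study reports more nuclei after its filters, so its set of nuclei was not reproduced. Nuclei were clustered with Seurat 5.3.0 (2000 variable genes, 50 components, 20 neighbors, resolution 1) without the clustered protocadherin genes. A cluster was named when at least 3 markers of a type were enriched 1.5-fold and found in at least 5% of its nuclei. A marker of the type also had to be among its 10 most enriched genes (found in at least 25% of nuclei). Markers of no other list could be as many there, the broad neuron lists aside, and clusters of very low depth were left unnamed. This rule was set after clusters had been seen. The study's filter, as worded, kept genes with summed UMIs above 10% of nuclei. Here it left 5018 genes over all nuclei and 2625 to 6142 in a class, fewer than the study gives for its clusters. The study fitted a batch term for the nuclei. The labels do not tie mice to batches, so none was fitted and batch effects in the nuclei could not be separated.

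Values are given for the C-type genes, and in each cluster for the 3 genes with the highest level and the 3 with the largest change, ranked on counts as deposited. Segments that ranked higher were added. Of other lists, called genes and the 2 with the largest change are named, and the other genes named were chosen after their values were seen. The alternatives were the likelihood ratio test, DESeq2 1.42.0, no TMM factors, no filter, a replicate block, each mouse left out, each cluster summed, no doublet filter, 1000 genes per nucleus and thinning. Segments were a later addition, chosen after seeing the data, and so were their fits with a mouse left out. Simulated counts with known changes served to check the tests. The planted changes were larger than any bulk estimate of a member or segment. How well changes as small as those estimates are found was not tested.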

Additional observations from a re-analysis of the deposited data

Results flagged for a closer look

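Of 68 groups of values checked for a sample far from its group, 4 had one, where chance gives about 1 in 20. In bulk, Pcdhb5 was at 1.48 CPM in control replicate 4, below the other control mice, of which the nearest was at 2.02 CPM. The segment of Pcdha11 (ENSMUSG00000007440) was at 8.73 CPM in control replicate 2, above the nearest control mouse at 7.28 CPM. In the nuclei, control replicate 2 held 120.1 CPM of beta UMIs, and the nearest control mouse 106. Pcdhgc3 was at 1.50 CPM in CUS replicate 1 (10 UMIs), above the nearest CUS mouse at 1.06.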

How the results depend on the processing

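Clustered protocadherin genes called in bulk numbered 0 under every alternative run. Over all nuclei members could be tested without the filter (57) or as summed clusters (2), with 0 calls. In every other setting, and within classes, 0 were tested, so these settings say nothing about members. The bulk median log2 fold change ran from −0.08 (segments) to −0.03 (without control replicate 2). Across 16 named members, 231 of 233 values kept their direction. Exceptions were Pcdhac1, at 0.04 as a nested gene and −0.0084 as a segment, and Pcdhb2, which ranged from −0.56 to 0.065 with a mouse left out. Among 12 segments with a mouse left out, 0 passed the threshold, Pcdhac1 ran from −0.040 to 0.016 and Pcdhgc4 from −0.079 to 0.0074, and the other 10 kept their direction. Calls among all genes moved more, from 606 to 1330 with the likelihood ratio test, 1402 with DESeq2, 822 without TMM factors, 780 without the filter and 133 to 1508 with a mouse left out. DESeq2 called 7 genes of the promoter choice and signalling lists instead of 3. The likelihood ratio test, DESeq2, no TMM factors and no filter, as well as leaving out control replicate 3 or CUS replicate 2, brought Pcdh11x past the threshold.

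By the labels, same-numbered control and CUS mice share only a number. The correlations of their deviations were 0.038, 0.199, 0.033 and 0.112 in bulk, all above 0. In nuclei they ran from −0.452 to 0.399. Pairs with different numbers ran from −0.209 to 0.128 in bulk. In nuclei they ran from −0.592 (control replicate 3, CUS replicate 2) to 0.531 (control replicate 2, CUS replicate 3). The part of batch in these values was not tested. With a replicate block, 0 members and 233 of all genes were called in bulk (median −0.06), and 1 gene in all nuclei.

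Over all nuclei, no median could be had with the filter. It was −0.11 without the filter and −0.11 with each cluster summed. Leaving out CUS replicate 2 raised the calls among 5018 genes from 1 to 790, and DESeq2 gave 22. With thinning, the highest alpha level was 31.2 CPM (Sst interneuron-like) instead of 26.2 (Pvalb interneuron-like). Causes of these shifts were not tested. Depth limits the nuclei, where members held at most 760 UMIs, as does a batch that could not be fitted. In bulk, nested gene models and the spread between mice are limits.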

Other observations

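Gene models named Gm42416, Gm37013 and Gm37388 in the bulk table run from the alpha into the gamma locus and so count reads of all 3 clusters. They held between 16857 and 21446 reads per mouse, with log2 fold changes of −0.06, −0.07 and −0.07 and FDRs of 0.462 to 0.487 by edgeR.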
